A study of Mus musculus with 5 samples.

Results

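The cytosolic ribosomal protein genes of the mouse were followed in GFP+ cells of skeletal muscle before and after bone injury. The members were the genes whose symbols start with Rpl or Rps and go on with digits and at most 1 letter, together with Rplp0, Rplp1, Rplp2 and Rpsa. The rule took 80 of the 31055 genes in every matrix, 49 of the large subunit and 31 of the small subunit, and it used no measured value.

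Each of the 5 libraries held cells sorted for GFP from the hindlimb muscles of 2 pooled mice, Prx1Cre;mTmG on a C57Bl/6 background and 10 to 14 weeks old. All 5 groups carried the Cre and the reporter. Cre under Prx1 control turns on GFP for good, so GFP marks cells whose lineage once used Prx1 in the limb, whatever they express at the sort. The groups were d0 (no injury, library SC3), d3 post-fracture (SC4), d5 post-fracture (SC9), d3 post-polytrauma (SC5) and d5 post-polytrauma (SC10). Fracture was a non-stabilized break of the tibia, and polytrauma added compression of the muscles around the tibia. With 1 library per group there was no replicate and no test. Intervals given below are exact 95% intervals that cover counting error only.

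Ribosomal proteins assemble with ribosomal RNA into a large subunit, which forms peptide bonds, and a small subunit, which reads the mRNA. Their mRNAs are among the most abundant of a cell, and many start with a run of pyrimidines, the terminal oligopyrimidine tract, through which growth signalling by mTORC1 controls their translation. Mesenchymal progenitors of muscle, also called fibro-adipogenic progenitors, are mostly quiescent in uninjured muscle and divide after injury.

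Windows of 30 bases around annotated start sites are shown for members that lay at the ends of the comparisons described below, since the tract is the best known feature these genes share. Each window runs on the sense strand from 10 bases before the start in the RefSeq annotation of GRCm38.p6, and capitals mark the longest run of at least 5 C or T letters that began with C within 5 bases of the start. The first 8 held such a tract.
Rps2, chr17:24720053-24720082, plus strand: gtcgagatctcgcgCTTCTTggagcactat
Rps27, chr3:90213629-90213658, minus strand: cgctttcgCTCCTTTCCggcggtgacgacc
Rpl35a, chr16:33056472-33056501, plus strand: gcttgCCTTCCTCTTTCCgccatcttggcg
Rpl13a, chr7:45128726-45128755, minus strand: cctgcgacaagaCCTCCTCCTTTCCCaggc
Rps18, chr17:33955646-33955675, minus strand: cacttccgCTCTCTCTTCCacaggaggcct
Rpl31, chr1:39367841-39367870, plus strand: tcctcgCCTCCCCgtgacccggaagttgta
Rps21, chr2:180257369-180257398, plus strand: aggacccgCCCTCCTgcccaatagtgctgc
Rpl39, chrX:37085203-37085232, minus strand: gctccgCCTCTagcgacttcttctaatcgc
Rpsa, chr9:120127756-120127785, plus strand: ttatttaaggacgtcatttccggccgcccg
Rps28, chr17:33824543-33824572, minus strand: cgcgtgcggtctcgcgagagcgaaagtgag
Rpl27, chr11:101442235-101442264, plus strand: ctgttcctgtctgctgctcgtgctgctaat
Rpl4, chr9:64173377-64173406, plus strand: tttcctgtgggagcagccgggtagagagga

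Of the 80 members, 60 had a promoter entry in the RefSeq table, and 28 of them (46.7%) held a tract in at least 1 entry, against 21.2% of all 27025 genes with an entry. The tracts were 5 to 20 bases long, with a median of 8.5. Over the full 300 bases and both strands, CCGGAA, the core bound by ETS factors, was in 47.2% of the 72 member promoters and in 14.9% of all 32851 promoters. The letters GCCATNTT of the YY1 motif were in 20.8% of member promoters against 6.05% of all, GGGCGG of Sp1 sites in 58.3% against 35.7%, and TATAAA in 8.33% against 13.6%. The 4 searches can overlap each other and the tract. Such matches describe letters in a window and not a site in use. Some genes had more than 1 annotated start, and the window printed for Rps2 lies inside a longer annotated gene.

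The names of 2 libraries need a caution. The deposited labels give SC5 as d5 post-fracture and SC9 as d3 post-polytrauma, whereas the numbers of cells given with the study place SC9 at d5 post-fracture and SC5 at d3 post-polytrauma. Conditions below follow the cell numbers. Both namings lead to the same 5 pairs of libraries. Under the deposited labels SC5 against SC4 would be d5 against d3 fracture, SC9 against SC4 would be d3 polytrauma against d3 fracture, SC10 against SC5 would be d5 polytrauma against d5 fracture, and SC10 against SC9 would be d5 against d3 polytrauma. SC9 and SC10 also used another set of cell barcodes than SC3, SC4 and SC5, with 0 to 3 barcodes in common across the sets. SC9 against SC4 and SC10 against SC5 therefore cross the sets, and time after injury and preparation cannot be told apart in them. The same holds wherever a d5 level is set beside d0. Within sets, 944 barcodes were shared by SC9 and SC10, with a median of 48.4 times more UMIs in SC9, and 405 to 525 by each pair of SC3, SC4 and SC5. Of the retained cells of SC9, 869 of 1468 (59.2%) carried a barcode found in another library, against 1.99% to 4.03% in the other libraries. Shared barcodes lay in 94.6% of SC9 cells of 46363 to 112365 UMIs, but in 2.45% of those of 1004 to 20983 UMIs. Cells with a shared barcode and under 10 times the UMIs of the other library made up 0.749% of SC9. They made up 1.66% to 2.83% of the other libraries. Libraries also served in several comparisons, so these are not independent of each other.

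Retained cells numbered 1468 to 11941 per library and held 17437190 to 202233564 UMIs. The median cell had 3640 UMIs at d0, followed by 17963 at d3 and 34949 at d5 after fracture, and by 15688 at d3 and 15753 at d5 after polytrauma. The 5 markers of fibro-adipogenic and mesenchymal progenitors summed to 933 to 2331 CPM (UMIs after each library was brought to the same total). None was at 0, but at this depth neither was any tenocyte, pericyte or endothelial marker. Myogenic markers summed to 0.286 to 3.71 CPM with Pax7 at 0 in SC3, SC4 and SC9, endothelial markers to 3.64 to 48.7 CPM and hematopoietic markers to 14.2 to 100.4 CPM. Chondrocyte markers summed to 78.6 to 297 CPM in 4 libraries and to 2785 CPM in SC9, where the progenitor markers summed to 1490 CPM. Erythroid markers summed to 217.5 CPM in SC3 against 2.28 to 46.5 CPM elsewhere.

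Ribosomal protein genes took 14.5% of all UMIs at d0 (95% interval 14.499 to 14.532%). The share was 30.5% at d3 and 17.7% at d5 post-fracture, and 33.5% at d3 and 23.1% at d5 post-polytrauma. Both d3 libraries lay above both d5 libraries, and d0 lay lowest. Cells varied widely within a library. The median cell gave 14.4% of its UMIs to these genes at d0, with quartiles of 11.2 and 17.8%. At d3 it gave 30.1% (27.2 to 32.7%) post-fracture and 33.5% (30.8 to 35.9%) post-polytrauma. At d5 it gave 17.3% (14.6 to 19.8%) post-fracture and 22.8% (20.0 to 25.1%) post-polytrauma. The ranges between the quartiles at d3 did not overlap those at d0 or d5, while those at d0 and at d5 post-fracture did.

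**Figure D1:**
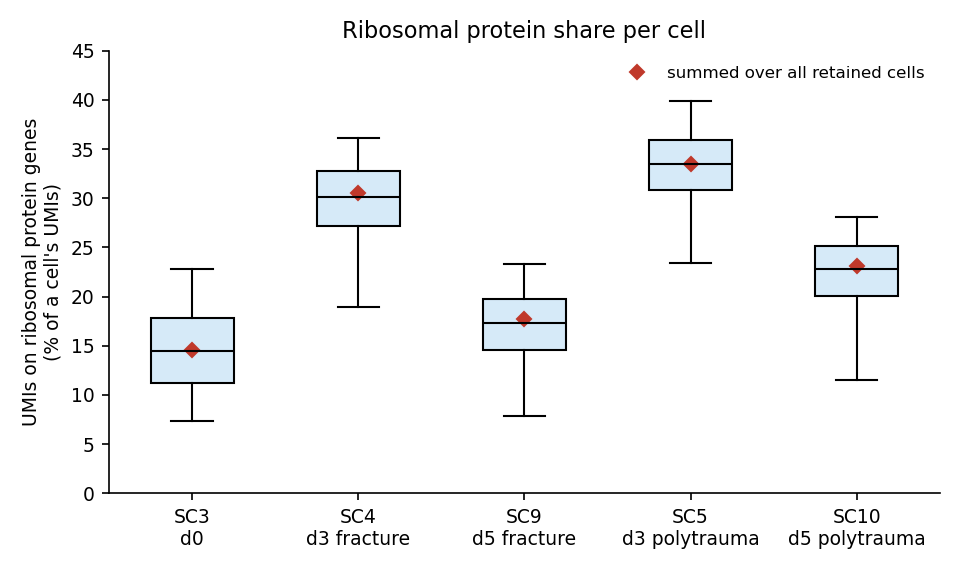
The vertical axis gives the percent of a cell's UMIs on the 80 ribosomal protein genes for each of the 5 libraries. Boxes show the quartiles and the median over retained cells, whiskers the 5th and 95th percentiles and diamonds the share summed over all retained cells, which runs from 14.5% at d0 to 33.5% at d3 post-polytrauma.

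The balance between the subunits hardly moved: large subunit genes held 58.4% of the members' UMIs at d0, 58.2% in both d3 libraries, 57.4% at d5 post-fracture and 56.7% at d5 post-polytrauma. Rpl41, which encodes the shortest of the proteins, drew more UMIs than any other member in each library, with 5459 CPM at d0, followed by 12610 at d3 and 6329 at d5 after fracture, and by 11810 at d3 and 7664 at d5 after polytrauma. UMIs were counted at the 3′ end and were not scaled by length. The 10 members with most UMIs held 23.6 to 24.3% of the members' total in every library. All 80 members had at least 1 UMI at d0 and d3 post-fracture, and 79 in each of the other libraries. Rpl3l and Rpl10l fell short of 50 UMIs over the pair in all 5 comparisons, so 78 members entered each of them.

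At d3 post-fracture all 78 members were higher than at d0, with a median log2 ratio of CPM of 1.1 (SD over members 0.34), while the median over the 13088 genes with at least 50 UMIs in the pair was -0.41. The members therefore stood 1.5 above the typical gene on the log2 scale. The members moved together in both subunits, with medians of 1.09 in the large and 1.11 in the small. A ratio of at least 1.5-fold upwards was met by 72 of 78 members and by 20.3% of all genes, and at least 2-fold by 52 members and 12.7% of all genes. No member was at least 1.5-fold lower, against 43.9% of all genes. Another scaling moves every gene of a comparison by the same constant, so distances from the typical gene stay. Another choice of cells changes them: the distance was 1.15 in FAP/MP-like clusters and 0.89 in cells of 3000 to 6000 UMIs. Median-of-ratios size factors shifted the log2 ratios by 0.58 here, and by -0.74, -0.05, 0.20 and -0.49 in SC9 against SC4, SC5 against SC4, SC10 against SC9 and SC10 against SC5. All 78 members stayed higher at d3 post-fracture than at d0 with it (median 1.68) and with totals over the other genes (1.40).

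Rps2, a small subunit protein near the entrance of the mRNA channel, rose the most. It had 1069 CPM at d0, followed by 6139 at d3 and 3096 at d5 after fracture, and by 7337 at d3 and 4763 at d5 after polytrauma. The d3 fracture library was 5.74-fold above d0, a log2 ratio of 2.52 (2.50 to 2.54). Rpsa, a small subunit protein also known as the laminin receptor, followed with 1198 CPM at d0, 4151 at d3 post-fracture, 3059 at d5 post-fracture, 4540 at d3 post-polytrauma and 5253 at d5 post-polytrauma. Its log2 ratio at d3 against d0 was 1.79. Rpsa had its highest CPM at d5 post-polytrauma, but under median-of-ratios scaling it was lower there than at d3 post-polytrauma (-0.28). Rpl10a of the mobile L1 stalk went from 1059 to 3227 CPM (1.61), and Rpl12, at the base of the P stalk, from 810 to 2416 CPM (1.58).

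The members that rose least at d3 post-fracture included 3 short proteins of the small subunit that stood high at d0. Rps27 had 3726 CPM at d0 and 4704 at d3 (0.34), Rps28 had 3440 and 4540 (0.40) and Rps29 had 4097 and 5735 CPM (0.48). Rpl13a, a large subunit protein known for a role outside the ribosome in interferon-treated monocytes, had 1001 and 1344 CPM (0.43), and Rpl35a 2386 and 3508 CPM (0.56). At d0 Rps27, Rps28 and Rps29 were among the 5 members with most UMIs. None of the 3 was among the 10 with most UMIs at d3 post-fracture.

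Other features of the libraries moved with this comparison. The summed tenocyte markers were at 1936 CPM at d0 and 160.7 at d3 post-fracture, the pericyte markers at 725 and 68.2, the erythroid markers at 217.5 and 28.6 and the division markers at 13.3 and 586 CPM. The mitochondrial share was 4.10% and 2.01% of UMIs. Within FAP/MP-like clusters alone the members' median was 0.80, all 78 were higher and 62 were at least 1.5-fold higher, against 15.9% of all genes. Without mitochondrial genes the median was 1.07. The FAP/MP-like clusters held 3051 of 4632 retained cells at d0 and 1186 of 5589 at d3 post-fracture, so cell make-up was not held equal. The part of depth per cell, which differed between these libraries, is described further down.

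**Figure D2:**
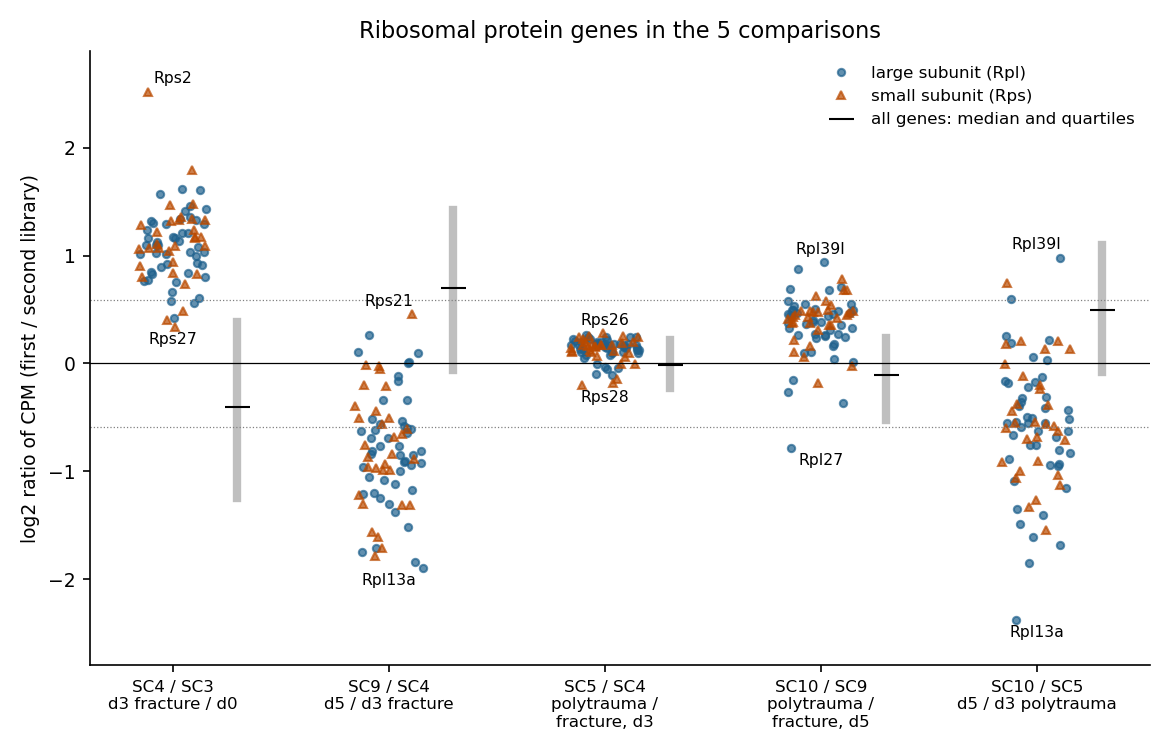
Each point is the log2 ratio of CPM of 1 ribosomal protein gene in 1 of 5 library pairs (circles large subunit, triangles small subunit, dotted lines 1.5-fold), beside the median and quartiles of all genes in grey. The members' median lies above that of all genes in SC4 against SC3 and SC10 against SC9 and below it in both d5 against d3 pairs, with single members such as Rpl27 and Rpl39l on the other side, and members lie within 0.28 of 0 in SC5 against SC4, and members drawn above 0 in SC9 against SC4 fall below 0 under median-of-ratios scaling.

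At d5 post-fracture the members were lower than at d3, with a median of -0.83 (SD 0.52) against 0.70 over 13602 genes, a distance of -1.52. Of 78 members, 72 were lower and 6 higher, and 54 were at least 1.5-fold lower against 11.5% of all genes, 22 of them at least 2-fold against 4.81%. None was at least 1.5-fold higher, against 53.7% of all genes. With median-of-ratios scaling the median was -1.56 and all 78 were lower. The subunits again moved together, at -0.82 in the large and -0.84 in the small. The spread over members was wider than at d3 against d0.

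Rpl13a fell furthest between these libraries. It had 1344 CPM at d3 and 360 at d5 post-fracture (-1.90), and 1463 at d3 and 280 at d5 post-polytrauma, both d5 values below its 1001 CPM at d0. Rpl31, a large subunit protein near the exit tunnel, went from 3314 to 926 CPM (-1.84), and Rps18, in the head of the small subunit, from 6533 to 1895 CPM (-1.79). Rpl4, which reaches into the exit tunnel, went from 2720 to 812 CPM, and Rpl14 from 4340 to 1323 CPM (-1.71). Rpl4, Rpl14, Rpl31 and Rps18 were thus lower at d5 post-fracture than at d0, when they had 1211, 1740, 1356 and 2597 CPM. The d0 and d5 libraries also differed in barcode set.

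At the other end stood small proteins. Rps21, a small subunit protein, had 2545 CPM at d3 and 3494 at d5 post-fracture (0.46), Rpl30 had 1675 and 2007 CPM (0.26), and Rpl39, which lines the exit tunnel, 4555 and 4889 CPM (0.10). Rpl38, known for its part in Hox mRNA translation and skeletal patterning, had 2737 and 2927 CPM (0.10), Rpl23 3429 and 3453 CPM (0.01), and Rpl39l 17.2 and 17.3 CPM (0.01). With median-of-ratios scaling these 6 ratios were all below 0, from -0.73 to -0.28, and with totals over the other genes only Rps21 (0.21) and Rpl30 (0.02) stayed above 0. They kept pace with the library better than other members did, but a rise depends on the scaling.

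The fibroblast markers, which include abundant collagens, summed to 18210 CPM at d3 and 50180 at d5 post-fracture, the chondrocyte markers to 124.3 and 2785 CPM, and the mitochondrial share was 2.01% and 5.17%. Within FAP/MP-like clusters alone the members' median was -0.82 with 51 at least 1.5-fold lower, against 13.3% of all genes. It was -0.85 without shared barcodes, with 57 lower against 13.2%, and -0.78 without mitochondrial genes, with 49 lower against 10.5%. Leaving out shared barcodes kept 599 of 1468 SC9 cells and dropped 94.6% of those of 46363 to 112365 UMIs. In SC9 cells of that depth the members' share was 18.7%, against 13.6% in those of 1004 to 20983 UMIs. That setting thus rests mostly on shallower SC9 cells. Between d3 and d5 post-polytrauma the fibroblast markers were at 10870 and 27870 CPM and the mitochondrial share at 2.16% and 3.48%, and their part in the ratios was not tested.

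Polytrauma and fracture were close at d3. In SC5 against SC4 the members had a median of 0.16 (SD 0.10) against -0.02 over 13556 genes, a distance of 0.18, and no member was 1.5-fold higher or lower, against 9.53% and 6.93% of all genes. Higher members numbered 67 and lower ones 11, a split that stayed at 67 and 11 with median-of-ratios scaling. The lowest ratios were those of Rps28 (3947 CPM in SC5, -0.20), Rps21 (2248 CPM, -0.18) and Rps29 (5191 CPM, -0.14). At the high end were Rps26, which lies at the exit of the mRNA channel, with 2400 CPM in SC4 and 2919 in SC5 (0.28), and Rps6, the classic substrate of S6 kinase, with 3680 and 4387 CPM (0.25). This pair of libraries was alike in barcode set, depth and time under the naming by cell numbers. The fibroblast markers summed to 18210 CPM in SC4 and 10870 in SC5, the FAP/MP markers to 933 and 1592, the tenocyte markers to 160.7 and 63.7 and the hematopoietic markers to 25 and 100.4 CPM, and their part in the ratios was not tested.

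At d5 the members were higher post-polytrauma than post-fracture. In SC10 against SC9 their median was 0.42 (SD 0.27) against -0.11 over 14476 genes, a distance of 0.53. Of 78 members, 72 were higher and 6 lower, 9 at least 1.5-fold higher against 8.75% of all genes and 1 at least 1.5-fold lower against 23.1%. None reached 2-fold, against 2.77% of all genes that were at least 2-fold higher and 12.4% lower. The count of 9 became 44 with median-of-ratios scaling against 16.5% of all genes and 21 with totals over the other genes against 12.1%. It became 19 without shared barcodes against 11.9%, with 599 mostly shallower cells left in SC9. Rpl27 was the member at least 1.5-fold lower: it had 685 CPM in SC9 and 397 in SC10 (-0.79), both below 972 CPM at d0. Rpl13a had 360 and 280 CPM (-0.36). Rpl8, at the heart of the large subunit, had 1585 and 2903 CPM (0.87), Rpsa 3059 and 5253 CPM (0.78) and Rpl14 1323 and 2166 CPM (0.71). Under median-of-ratios scaling Rpl27 and Rpl13a stayed lower, at -0.59 and -0.16, whereas Rps28 (-0.18 in CPM) turned to 0.02.

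Chondrocyte markers, which summed to 2785 CPM in SC9 and 297 in SC10, moved with this comparison, as did fibroblast markers (50180 and 27870 CPM), tenocyte markers (526.5 and 210 CPM) and the mitochondrial share, at 5.17% of UMIs in SC9 and 3.48% in SC10. Without mitochondrial genes the median was 0.39, and within clusters named from progenitor markers alone it was 0.55, with 31 members at least 1.5-fold higher against 19.2% of all genes. In SC10 these clusters were 1 led by Ankrd1 (955 cells, share 24.6%) and 1 led by Pi16 (1103 cells, 21.9%). The part of depth, whose median per cell was 34949 UMIs in SC9, was not tested. Depth is only described further down, by depth bins and by thinned cells.

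Under polytrauma the members were lower at d5 than at d3, with a median of -0.55 (SD 0.59) against 0.50 over 14574 genes, a distance of -1.05. Of 78 members, 65 were lower and 13 higher, a split of 75 and 3 with median-of-ratios scaling. In CPM 36 members were at least 1.5-fold lower, against 10.4% of all genes, 16 of them at least 2-fold against 6.04%, and 3 were at least 1.5-fold higher against 46.2%, none of them 2-fold against 28.5%. With median-of-ratios scaling the median was -1.04 and 64 members were at least 1.5-fold lower against 24.3% of all genes, and in cells of 3000 to 6000 UMIs it was -1.01 with 66 against 13.5%. The members that were lowest were Rpl13a (-2.38), Rpl27 (1430 and 397 CPM, -1.85), Rpl4 (3222 and 1005 CPM, -1.68), Rpl23a (4836 and 1582 CPM, -1.61) and Rps6 (4387 and 1508 CPM, -1.54). The 3 that were 1.5-fold higher were Rpl39l (16.8 and 33.1 CPM, 0.98), Rps21 (2248 and 3767 CPM, 0.74) and Rpl30 (1804 and 2730 CPM, 0.60), and these 3 stayed above 0 with median-of-ratios scaling while the other 10 turned below 0. Within FAP/MP-like clusters alone the median was -0.45, with 33 members at least 1.5-fold lower, against 9.17% of all genes.

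**Figure D3:**
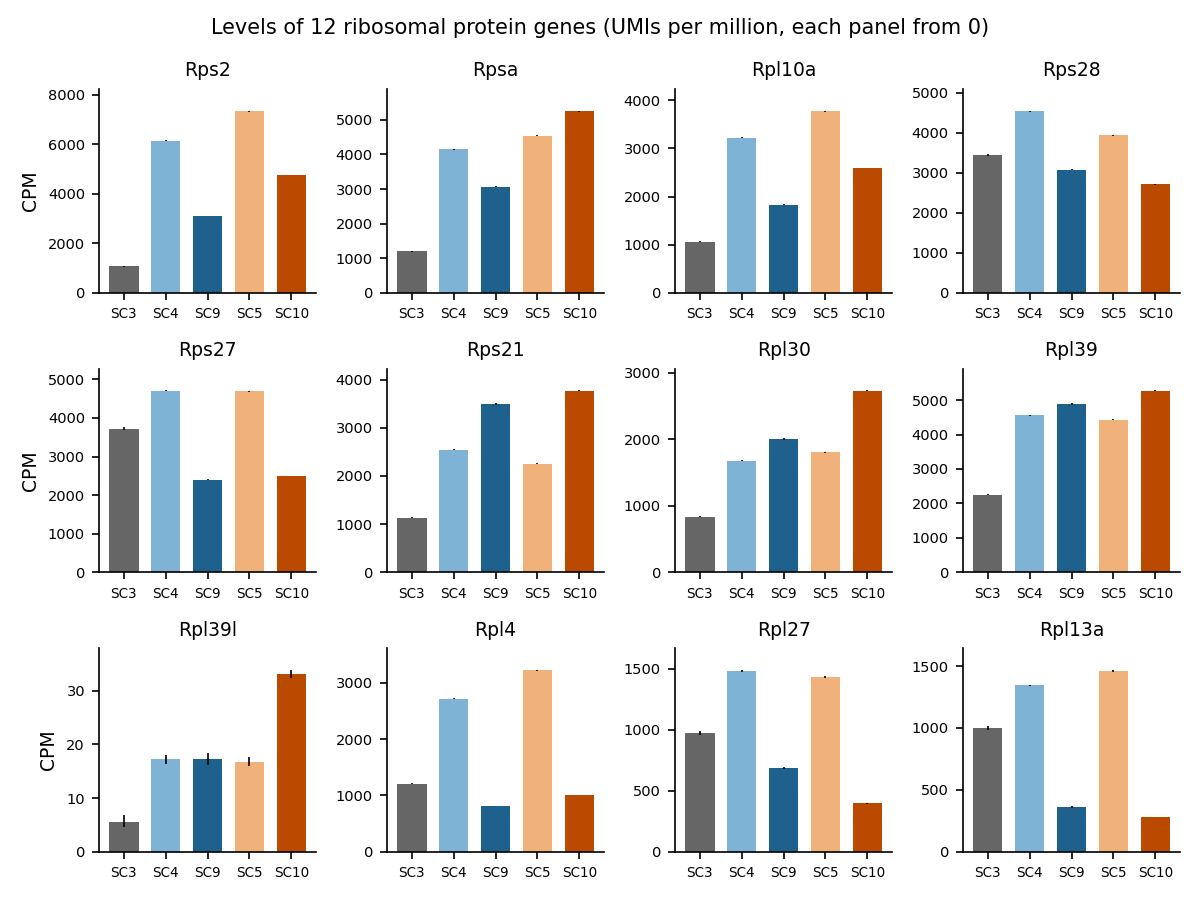
Bars give CPM in each library for 12 ribosomal protein genes, each panel from 0 on its own scale, and the bars' 95% Poisson intervals cover counting error only. Rps2 and Rpl10a are lowest at d0 and highest at d3 post-polytrauma, Rps21, Rpl30, Rpl39 and Rpl39l are highest at d5 post-polytrauma on the CPM scale (Rpl39 not so under median-of-ratios scaling), and Rpl13a and Rpl27 are lowest there.

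The d5 against d3 pairs of fracture and of polytrauma shared no library, so the members can be set against each other. Over the 78 members the ratios of SC9 against SC4 and of SC10 against SC5 had a Pearson's r of 0.91 and a Spearman's rho of 0.93. Of the 54 and 36 members at least 1.5-fold lower, 35 were the same, 64.8% of the first list and 97.2% of the second. Over all 13516 genes with the minimum in both pairs r was 0.72 and rho 0.71, and 587 genes at least 1.5-fold lower in both were 37.7% of the first list and 47.5% of the second, so a likeness of the pairs was general. The 6 members with ratios above 0 in CPM in the first pair, Rpl23, Rpl30, Rpl38, Rpl39, Rpl39l and Rps21, were above 0 in the second. Both pairs cross the same border between barcode sets, which the points share along with sequence and transcript length, so the likeness cannot be told apart from a difference of preparation.

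**Figure D4:**
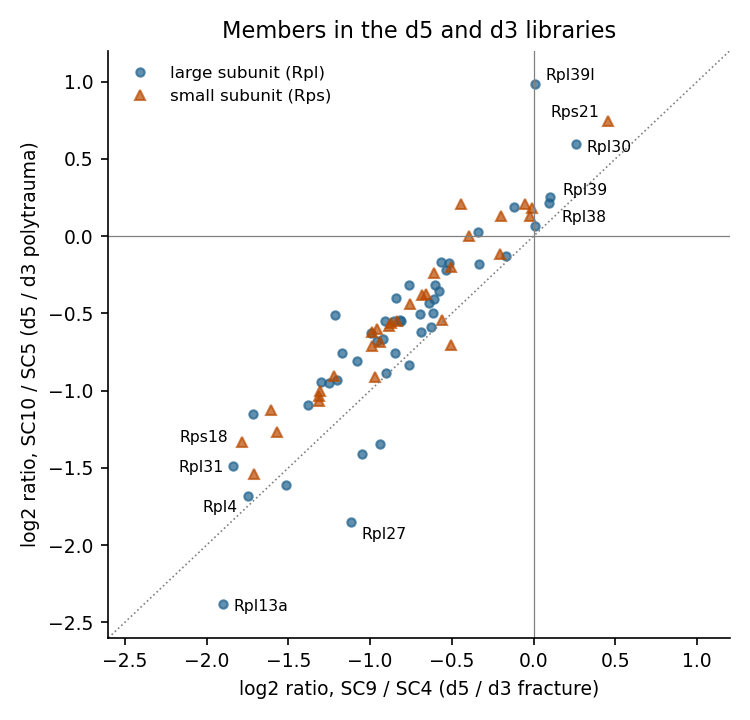
Each point is 1 of 78 ribosomal protein genes, with the log2 ratio of CPM of d5 against d3 post-fracture (SC9 / SC4) on the horizontal axis, that of d5 against d3 post-polytrauma (SC10 / SC5) on the vertical axis and a dotted line of equality. The points follow the line with r of 0.91, from Rpl13a at the lower left to Rps21 and Rpl39l at the upper right, and the points right of 0 on the horizontal axis move left of it under median-of-ratios scaling, which leaves Rps21, Rpl30 and Rpl39l above 0 on the vertical axis.

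The P stalk, built of Rplp0 with pairs of Rplp1 and Rplp2, binds the GTPase factors of translation. Rplp0 had 2927 CPM at d0, followed by 8058 at d3 and 3384 at d5 after fracture, and by 9063 at d3 and 4681 at d5 after polytrauma. Rplp1 had 2770, 7095, 4796, 7572 and 6747 CPM in the same order, and Rplp2 had 1915, 4302, 2215, 4628 and 2893 CPM. All 3 were highest at d3, with d3 against d0 log2 ratios of 1.46, 1.36 and 1.17. At d5 against d3 post-fracture Rplp0 was further down (-1.25) than Rplp1 (-0.57) and Rplp2 (-0.96), while Rpsa stood at -0.44.

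Rpl5 and Rpl11 bind the 5S ribosomal RNA and, when free, the p53 regulator Mdm2. Rpl5 had 636 CPM at d0, followed by 1358 at d3 and 1211 at d5 after fracture, and by 1507 at d3 and 1377 at d5 after polytrauma. Rpl11 had 1445, 3400, 1940, 3858 and 2634 CPM in that order. The pair rose alike at d3 post-fracture, with log2 ratios of 1.09 and 1.23, and parted at d5 against d3 post-fracture, with -0.17 for Rpl5 and -0.81 for Rpl11. Rps27a, made as a fusion of ubiquitin and a small subunit protein, had 1974, 4670, 2905, 5240 and 4017 CPM. A list of 9 members mutated in Diamond-Blackfan anemia, an inherited failure of red cell formation, had a median of 1.09 at d3 against d0. All 9 were higher there, as were all 78 members. At d5 against d3 post-fracture the list had a median of -0.50 and all 9 were lower, as were 72 of the 78 members. Within that list Rps19 at d5 against d3 post-fracture was at -1.61 (6676 and 2195 CPM) and Rps24 at -0.02 (3718 and 3664 CPM).

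Several members have paralogs that can stand in for them, and the shares within pairs do not depend on the scaling of libraries. Rps27l, a p53 target, held 9.56% of the UMIs of Rps27 and Rps27l at d0 (9.35 to 9.78%), 15.9% at d3 and 16.1% at d5 post-fracture, and 15.9% at d3 and 19.1% at d5 post-polytrauma. Rpl39l, known from testis, held 0.246% of its pair with Rpl39 at d0 (0.200 to 0.300%), 0.376% at d3 and 0.352% at d5 post-fracture, and 0.377% at d3 and 0.624% at d5 post-polytrauma (0.609 to 0.639%). Both were lowest at d0 and highest at d5 post-polytrauma. Rpl22l1, which lies outside the rule, held 60.7% of its pair with Rpl22 at d0, 55.9% and 45.8% at d3 and d5 post-fracture, and 52.6% and 44.2% at d3 and d5 post-polytrauma. Rpl36al held 27.9% of its pair with Rpl36a at d0, 24.3% and 18.5% post-fracture, and 20.1% and 13.1% post-polytrauma. These 2 pairs ran the other way, with the paralog's share highest at d0 and lower at d5 than at d3. Rpl7l1 held 4.51% of its pair at d0 and 1.96 to 2.73% in the other libraries. The muscle paralog Rpl3l had 11 UMIs at d0 and 1 to 3 elsewhere, and Rpl10l had 2 UMIs at d0, 1 at d3 post-fracture and 0 in SC9, SC5 and SC10, which allows at most 0.00315% of its pair in SC9. Rps4l was not analysed here.

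Ribosomal protein genes have many processed copies in the genome, and reads that fit several near-identical copies may be lost or split. GENCODE M21 names 293 pseudogenes after 55 of the 80 members, and 9 named copies are among the genes of the matrices. Rpl10-ps3 held 5.13% of the UMIs of its pair with Rpl10 at d0 and 0.777 to 1.34% elsewhere. Rpl27-ps3 held 1.40% of its pair with Rpl27 at d0, followed by 2.21% at d3 and 3.33% at d5 after fracture, and by 2.34% at d3 and 3.53% at d5 after polytrauma, and Rpl13a-ps1 held 0.0476 to 0.149% of its pair. The counts of Rpl27 and Rpl13a are thus uncertain to the extent that reads went to copies that were not counted. The number of named copies had a Spearman's rho between -0.05 and 0.17 with the members' ratios in the 5 comparisons over 78 members.

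Coding length went along with the ratios to a degree. It was taken as the longest coding sequence annotated for any transcript of a gene, which need not be that of the main protein. Over the 78 members, which share libraries and depth, Pearson's r between coding length and log2 ratio was 0.34 in SC4 against SC3, -0.36 in SC9 against SC4, 0.58 in SC5 against SC4, 0.26 in SC10 against SC9 and -0.30 in SC10 against SC5. The 40 members of fewer than 462 coding bases had medians of 1.02, -0.68, 0.11, 0.36 and -0.52, and the 38 longer ones of 1.11, -0.88, 0.18, 0.47 and -0.59, in that order. Shorter members thus had medians nearer 0 than longer ones in all 5 comparisons. Rpl39 (153 bases), Rps29 (168), Rps28 (207), Rpl38 (210), Rps21 (249) and Rps27 (252) were all short, and Rpl4 (1257) was the longest. Rpl41 (138), the shortest, had ratios of 1.21, -0.99, -0.095, 0.28 and -0.62 in the same order. It lay further from 0 than the longer members' median in SC4 against SC3, SC9 against SC4 and SC10 against SC5. In SC5 against SC4 and SC10 against SC9 it lay below the shorter members' median. Other short members were not uniform either, with Rps21 at 1.17 in SC4 against SC3, and Rps27 at -0.97 in SC9 against SC4 and -0.91 in SC10 against SC5. Members split by the tract search differed less. Medians of the 28 members with a tract and the 30 without one by this search were 1.11 and 1.06 in SC4 against SC3. They were -0.77 and -0.79 in SC9 against SC4, 0.15 and 0.17 in SC5 against SC4, 0.38 and 0.38 in SC10 against SC9, and -0.52 and -0.57 in SC10 against SC5. Only 2 of the 28 tracts began at the annotated start itself. The split therefore rests on start annotation and cannot show how much a tract matters. The windows shown above put Rps21 and Rpl39 with Rpl13a and Rps18 among the members with a tract, although they stood at opposite ends at d5 against d3.

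Depth per cell moved with the share of UMIs on the members in the libraries after injury, but hardly at d0. Across cells Spearman's rho between the share and the cell's UMIs was -0.08 at d0, followed by 0.39 at d3 and 0.36 at d5 after fracture, and by 0.18 at d3 and 0.37 at d5 after polytrauma. Between the share and the mitochondrial percent rho was -0.42 at d0, -0.02 and -0.24 post-fracture, and -0.04 and -0.36 post-polytrauma. Among cells of 3000 to 6000 UMIs, a range chosen after seeing the data, the members took 14.4% at d0 (2635 cells), 23.6% at d3 post-fracture (381), 28.8% at d3 post-polytrauma (399), 13.9% at d5 post-polytrauma (733) and 10.3% at d5 post-fracture (21). The d3 libraries remained the highest at that depth, and both d5 libraries were below d0. The median mitochondrial percent of these cells was 2.85 at d0 but 8.14 at d5 post-fracture and 9.83 at d5 post-polytrauma, and its part was not tested. An unnamed SC10 cluster led by Gm26917 and Lars2 (708 cells) had a median of 4711.5 UMIs and 11.67% mitochondrial UMIs. Its median cell gave 9.93% to the members. How many of its cells fell in this depth range was not counted. In these cells the median ratio at d3 post-fracture against d0 was 0.70 instead of 1.1, that of d5 against d3 post-fracture -1.30 instead of -0.83 and that of d5 against d3 post-polytrauma -1.01 instead of -0.55. In cells of 1000 to 2000 UMIs the median cell gave 14.1% at d0, 19.6% at d5 post-fracture (30 cells) and 19.7% at d5 post-polytrauma (424 cells). Of those 424, 72.2% carried a barcode found in another library. The order of d0 and the d5 libraries therefore depended on the cells compared. In cells thinned to 2000 UMIs the shares were 14.8%, 29.5%, 16.9%, 32.9% and 22.1% at d0, d3 and d5 post-fracture, and d3 and d5 post-polytrauma.

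**Figure D5:**
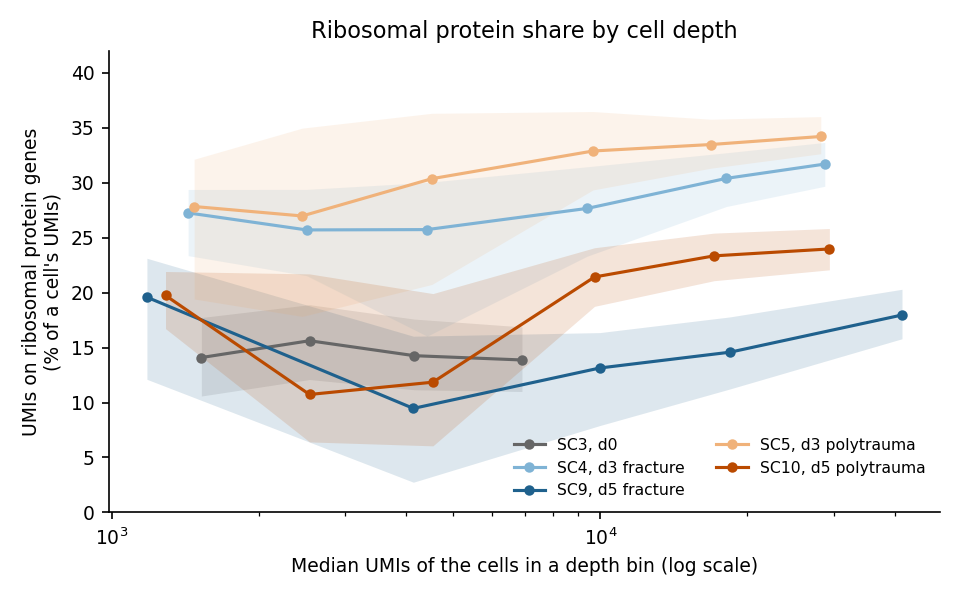
The percent of a cell's UMIs on ribosomal protein genes is plotted against the median UMIs of the cells in a depth bin, on a log axis, for the 5 libraries, with lines through the medians and bands over the quartiles. The d3 libraries lie above the others in every bin. The median of SC10 lies above that of SC3 at 1000 to 2000 UMIs, with overlapping bands. SC10 overlaps SC3 at 3000 to 6000 UMIs but lies above it beyond 6000, and the bins of SC9 below 6000 UMIs hold at most 30 cells.

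Dividing cells, taken as those with at least 2 of the 8 division markers after thinning, gave nearly the same share as the other cells. The values were 30.9 and 30.4% at d3 post-fracture, 33.5 and 33.5% at d3 post-polytrauma, 18 and 17.7% at d5 post-fracture, and 22.8 and 23.2% at d5 post-polytrauma. Dividing cells made up 0.103% of cells at d0, 19.6% and 12.9% at d3 and d5 post-fracture, and 16.8% and 23.1% at d3 and d5 post-polytrauma.

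Clusters were found without the members and named from cell type markers, and 380 to 4824 cells per library stayed in unnamed clusters, with shares of 12.7% at d0 to 33.8% at d3 post-polytrauma. In progenitor-like (FAP/MP-like) clusters the share was 16.5% at d0, 28.9% and 16.7% at d3 and d5 post-fracture, and 33.6% and 23.5% at d3 and d5 post-polytrauma. These clusters held 3051 of 4632 retained cells at d0, 1186 of 5589 and 528 of 1468 post-fracture, and 872 of 6201 and 2058 of 11941 post-polytrauma. They were thus unlike parts of the libraries. In SC5 a cluster of 1538 cells that met 4 of the progenitor markers stayed unnamed. Tenocyte-like clusters gave 13.5%, 27.7%, 16.1%, 31.4% and 22.2% in the same order, the d5 fracture cluster being led by the macrophage gene Lyz2. Pericyte-like clusters gave 9.45%, 24.2%, 11.0%, 24.5% and 19.2%. At d3 post-fracture this class joined 2 unlike clusters, 1 led by Mustn1, Sncg and Myh11 (69 cells) and 1 led by Rgs5 (77 cells). Their median cells gave 11.9% and 25.4%, against 9.19% in the d0 cluster, which was led by Tagln and Myh11. At d5 post-fracture the class also joined 2 clusters, with median cells at 6.87% (19 cells) and 13.8% (18 cells). Pericyte-like clusters were the lowest of these 3 classes in each library. Their median mitochondrial share at d0 was 9.28%, against 2.82% in FAP/MP-like clusters, and its part was not tested. Chondrocyte-like clusters gave 20.1% in SC9 (180 cells) and 25.7% in SC10 (507 cells), where the SC10 cluster had a median of 1804 UMIs and 50.3% shared barcodes. The median cell of that cluster gave 22.6%, below the 23.2% of FAP/MP-like clusters in SC10. Each of the 3 classes had its highest shares in the d3 libraries. By the median cell, d5 post-fracture was not above d0 in FAP/MP-like clusters (16.1 and 16.2%) or pericyte-like clusters (8.94 and 9.19%, the former over 37 cells). Fibroblast-like clusters gave 30.8% in SC4 (1116 cells) and 22.8% in SC10 (4520 cells). Hematopoietic-like clusters gave 23.2% in SC5 (78 cells) and 19.2% in SC10 (29 cells). Their median cells, at 18.5% and 16.4%, lay below those of the pericyte-like clusters, at 21.8% and 18.1%.

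Genes outside the rule that encode ribosomal or ribosome-bound proteins moved in part with the members. Among these 8 genes, 7 were higher at d3 post-fracture than at d0 (median 0.86), all 8 lower at d5 than at d3 post-fracture (-0.61), and 6 higher at d5 post-polytrauma than post-fracture (0.34). Rack1, a scaffold on the small subunit, had 578, 1651, 1430, 1795 and 2089 CPM at d0, d3 and d5 post-fracture, and d3 and d5 post-polytrauma. Rps27rt, a retrogene copy of Rps27, ran against the members from d0 to d3, with 158 CPM at d0 and 72.4 at d3 post-fracture, and had 16.5 CPM at d5 post-fracture.

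A list of 15 elongation factors and other genes known for such tracts, of which 3 of the 9 with a promoter entry held one by the search used here, followed with smaller steps. All 15 were higher at d3 post-fracture than at d0 (median 0.70), 10 of 15 lower at d5 than at d3 post-fracture (-0.35), all 15 higher in SC5 than SC4 (0.16), 13 higher in SC10 than SC9 (0.32) and 12 lower in SC10 than SC5 (-0.29). Eef1g, a subunit of the factor that reloads elongation factor 1, had 576, 2006, 557, 2239 and 862 CPM in the order used above, the pattern of Rpl4 and Rps18. Eef1b2, another subunit of that factor, had 333, 1288, 1310, 1404 and 1639 CPM, with ratios at d5 against d3 of 0.03 post-fracture and 0.22 post-polytrauma in CPM, both smaller than the shifts of -0.74 and -0.49 under median-of-ratios scaling, which turn them below 0. Eif3f stood apart, with 62.8, 71.6, 365, 82.4 and 473 CPM, high in both libraries of the SC9 and SC10 barcode set. Tpt1 had 2362, 2873, 5629, 3151 and 5613 CPM and was also high in that set.

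Initiation factors had medians of 0.25, -0.38, 0.09, 0.34 and -0.21 over 27 genes in SC4 against SC3, SC9 against SC4, SC5 against SC4, SC10 against SC9 and SC10 against SC5. Eif4ebp1, which holds back cap-dependent initiation, had 54.1 CPM at d0, followed by 252 at d3 and 74.6 at d5 after fracture, and by 289 at d3 and 184 at d5 after polytrauma, whereas Eif4a2 had 340, 83.3, 124, 89.3 and 64.5 CPM. The 40 ribosome assembly genes had medians of 0.31, -0.46, 0.23, 0.47 and -0.24, with 29, 8, 33, 38 and 13 genes higher. Nhp2, of the box H/ACA particle, had 80.8, 270, 95.1, 294 and 175 CPM, and Myc, a regulator of ribosome making, 414, 102, 129, 84.9 and 70.3 CPM. Myc was thus highest in the d0 library, where the members' share of UMIs over all retained cells was lowest (14.5%).

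Mitochondrial ribosomal protein genes, which serve translation inside the organelle, were mostly higher at d3 than at d0 and d5 post-fracture. Of 78 such genes, 70 were higher at d3 post-fracture than at d0 (median 0.92), 69 lower at d5 than at d3 post-fracture (-0.61) and 71 higher in SC10 than SC9 (0.45). Of all genes, 4708 of 13088, 3646 of 13602 and 6050 of 14476 went these ways. At d5 against d3 post-polytrauma 49 of 78 were lower, with a median of -0.10, against 65 of 78 and -0.55 for the cytosolic genes. Of all genes 4108 of 14574 were lower there. The mitochondrial genes parted from the cytosolic genes between the d3 libraries, where 62 of 78 were lower in SC5 than SC4 (-0.14) while 67 of 78 cytosolic genes were higher (0.16). In that pair 7078 of 13556 genes were lower. Mrps24 had 13.5 CPM at d0, followed by 52.4 at d3 and 121 at d5 after fracture, and by 64.5 at d3 and 179 at d5 after polytrauma, and Mrps30 had 4.59, 4.59, 19.6, 4.45 and 24.8 CPM. Both were high in the 2 libraries of the SC9 and SC10 barcode set, as Eif3f was. Of the 75 promoters of these genes 22.7% held a tract, against 41.7% of the 72 promoters of the cytosolic members. As distances from the typical gene in SC4 against SC3, which no scaling changes, the medians were 1.5 for the cytosolic members, 1.33 for the mitochondrial genes, 1.11 for the elongation list, 0.72 for assembly and 0.66 for initiation. In SC9 against SC4 they were -1.52, -1.31, -1.05, -1.15 and -1.08 in the same order. In SC10 against SC9 they were 0.53, 0.55, 0.43, 0.57 and 0.45, in SC5 against SC4 0.18, -0.12, 0.18, 0.24 and 0.10, and in SC10 against SC5 -1.05, -0.60, -0.79, -0.74 and -0.71. The cytosolic members were furthest from the typical gene in 3 of the 5 comparisons, and the assembly genes in SC10 against SC9 and SC5 against SC4.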

How the data were processed

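GFP+ cells were counted on the 10x Chromium 3′ platform. The authors aligned the reads to mm10 with Cell Ranger (3.1.0 in the matrix headers), and the deposited matrices hold raw UMI counts per gene and barcode, with no normalization. Seurat 3.1.2 is named in the submitters' processing notes. All 5 libraries were read, and 0 columns belonged to other samples. Retained cells had 350 to 8000 genes, under 20% mitochondrial UMIs and at least 1000 UMIs: 29831 of 34439 barcodes. Filters at the read level are not given in the sources used here.

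UMIs were summed over retained cells per library and scaled to a common total (CPM). Log2 ratios used a prior of 0.5 UMI and a minimum of 50 UMIs over the pair, and 1.5-fold either way marked a difference. Intervals were exact (Poisson or Clopper-Pearson, 95%) and cover counting error only, as the depth of 17437190 to 202233564 UMIs makes them narrow. Cells were clustered per library without members and markers (2000 variable genes, 20 principal components, 15 neighbours, Leiden resolution 0.5), which gave 52 clusters, 35 of them named. A name needed at least 3 markers of a type, each in at least 10% of cells and higher than in the rest of the library. It also needed a larger part of its markers than other types, with fibroblast set behind the rest, and no fewer markers among the leading genes. Clusters led by division markers, and shallow ones with no marker among the leading genes, stayed unnamed. The naming rule was settled after the clusters were seen. Scrublet scores marked 0.8% of cells per 1000 as possible doublets, which were kept and left out in an alternative. Thinning used 2000 UMIs per cell with a fixed seed.

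Named were the 5 highest and 5 lowest members of each comparison, the stalk proteins, Rpsa, paralog pairs, the 5S pair, Rps27a and the 2 most changed genes either way of other lists, of which the text gives a part, and 1 gene of these lists is not reported here. Genes named outside these places, such as Rpl41, were chosen after their values were seen. Members and lists were chosen with earlier results of these data known. Promoter windows came from RefSeq (GRCm38.p6) and gene models from GENCODE M21, in which all 80 members matched. The scripts were tested on simulated data. Python 3.11.15, numpy 2.4.6, scipy 1.17.1, pandas 2.3.3, scanpy 1.11.5, scikit-learn 1.9.0, leidenalg 0.10.2, igraph 0.11.9 and matplotlib 3.10.9 were used. Alternatives were median-of-ratios scaling, totals over other genes or without mitochondrial genes, cell and gene minimums, thinning, shared barcodes and doublets left out, FAP/MP-like clusters alone, 7 more genes, a fold of 2 and the deposited names, and, added after seeing the data, cells of 3000 to 6000 UMIs and a rule of 10 times for shared barcodes.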

Additional observations from a re-analysis of the deposited data

How the results depend on the processing

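No paired analysis was possible because each condition has 1 library, and for the same reason no replicate could be left out. The direction of the members' median held in all 5 library pairs and under all 13 alternatives of each. Among these, the deposited names keep the same pairs, so they could not change a ratio. They change what a pair compares. Under them d5 against d3 would be 0.16 after fracture and 0.42 after polytrauma, instead of -0.83 and -0.55. Polytrauma against fracture would be -0.83 at d3 and -0.55 at d5, instead of 0.16 and 0.42. The directions of these comparisons thus depend on the naming. Size depended on the scaling and on the cells, with causes not tested, and the depth limits single cells more than sums. Medians below are in the order SC4 against SC3, SC9 against SC4, SC5 against SC4, SC10 against SC9 and SC10 against SC5. Median-of-ratios scaling gave 1.68, -1.56, 0.12, 0.62 and -1.04. In SC10 against SC9 44 members were at least 1.5-fold higher, against 16.5% of all genes. In SC10 against SC5 0 were higher and 64 lower, against 26.0% and 24.3% of all genes. Totals over the other genes gave 1.40, -1.07, 0.23, 0.52 and -0.76. In SC10 against SC9 21 were higher, against 12.1% of all genes, and in SC10 against SC5 1 was higher, against 37.0%. FAP/MP-like clusters alone gave 0.80, -0.82, 0.22, 0.55 and -0.45, with 31 higher in SC10 against SC9, against 19.2% of all genes. Cells of 3000 to 6000 UMIs, chosen after seeing the data, gave 0.70, -1.30, 0.26, 0.49 and -1.01, with only 21 cells in SC9. In SC5 against SC4 2 members were higher, against 12.8% of all genes. In SC10 against SC9 32 of 77 were higher, against 30.5% of all genes. In SC10 against SC5 0 were higher and 66 lower, against 45.2% and 13.5% of all genes. Thinned cells gave 1.01, -0.84, 0.17, 0.43 and -0.58. Without mitochondrial genes the median was 1.07 in SC4 against SC3, -0.78 in SC9 against SC4, 0.39 in SC10 against SC9 and -0.53 in SC10 against SC5. With no minimum of UMIs per cell it was 1.07 in SC4 against SC3. Without shared barcodes, which left 599 mostly shallower cells in SC9, it was -0.85 in SC9 against SC4. In SC10 against SC9 it was 0.44 and 19 were higher, against 11.9% of all genes. With no minimum per gene it was 1.09 in SC4 against SC3 and -0.81 in SC9 against SC4. There 2 members were lower in SC4 against SC3 (54.0% of all genes) and 1 higher in SC9 against SC4 (55.8%). In SC5 against SC4 1 was higher and 1 lower (20.1% and 14.9%), and in SC10 against SC9 2 were lower (33.0%). With 7 genes outside the rule the median was 1.09, -0.82 and 0.40 in SC4 against SC3, SC9 against SC4 and SC10 against SC9. In the first 1 was lower (43.9% of all genes) and in the last 2 were lower (23.1%). A fold of 2 left 22 lower in SC9 against SC4 (4.81% of all genes) and 0 higher and 0 lower in SC10 against SC9 (2.77% and 12.4%). In SC10 against SC5 it left 0 higher and 16 lower (28.5% and 6.04%). The share of UMIs in SC3, SC4, SC9, SC5 and SC10 was 14.8, 29.5, 16.9, 32.9 and 22.1% in thinned cells, 16.5, 28.9, 16.7, 33.6 and 23.5% in FAP/MP-like clusters, 14.4, 23.6, 10.3, 28.8 and 13.9% in cells of 3000 to 6000 UMIs, and 15.1, 31.2, 18.7, 34.3 and 23.9% without mitochondrial genes. It was 14.7% in SC3 with no minimum per cell and 17.3% in SC9 without shared barcodes. The direction of single members near 0 depended on the scaling.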
